A study of Mus musculus with 6 samples.

Results

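Proteasome subunit genes were followed in purified retinal ganglion cells (RGCs), the neurons whose axons form the optic nerve, at an embryonic and an early postnatal age. Genes were taken by symbol, as every row whose name begins with Psma, Psmb, Psmc, Psmd or Psme followed by a digit, without the immunoproteasome genes Psmb8, Psmb9 and Psmb10. The rule gave 42 of the 24060 genes in the table, and 41 of them are subunits, assembly chaperones or activators of the proteasome. The remaining gene, Psmc3ip, encodes a cofactor of meiotic recombination and was matched by its name only.

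RNA-seq had been performed on 3 samples of RGCs from C57BL/6 mice at embryonic day 18 (E18, replicates 1, 3 and 4) and 3 samples at postnatal day 5 (P5, replicates 6, 8 and 9), with no transgene or treatment named for either age. RGCs were obtained from papain-treated retinas, first cleared of macrophages and then captured by antibodies against the surface protein Thy1 (CD90). The comparison contrasts RGCs that extend axons rapidly with RGCs that have lost this ability. Nothing states that the samples of one age came from separate animals, so p-values measure only the spread between these samples, which may be technical.

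The proteasome is the main protease of the cytosol and nucleus. Its core particle stacks rings of alpha and beta subunits into a barrel whose peptidase sites face inwards, and the regulatory particle, built from a base with a ring of ATPases and a lid, binds ubiquitin-tagged proteins, strips the ubiquitin, unfolds the substrate and threads it into the barrel. In neurons it is known for controlling the turnover of axonal and synaptic proteins.

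Between 81213639 and 114512853 reads were counted on genes per sample. All 8 RGC markers were detected at both ages, with summed levels of 5134 to 5940 CPM (counts scaled to a common library size) at E18 and 6289 to 7656 CPM at P5, and microglial markers summed to at most 4.33 CPM in any sample. Among the RGC markers, Thy1, Slc17a6 and Nefl were lower at E18 (log2 fold changes -1.16, -1.40 and -0.68) and Sncg was higher (0.40). Glial markers summed to 315 to 345 CPM at E18 and 235 to 276 CPM at P5, mostly Glul. Glul was higher at E18 (log2 fold change 0.35, adjusted p = 0.0138 by edgeR). Slc1a3 was at 16.2 CPM in E18 replicate 1 and at most 2.80 CPM in every other sample, and did not pass the threshold. Rlbp1 went the other way, at 2.72, 1.13 and 1.61 CPM at E18 and 4.22, 1.70 and 3.37 CPM at P5. Its log2 fold change of -0.77 did not pass the threshold (adjusted p = 0.152 by edgeR). Gfap had 4 to 11 reads and was not tested. The photoreceptor marker Crx was at 6.15, 2.78 and 0.773 CPM in E18 replicates 1, 3 and 4 and at most 0.425 CPM at P5. Crx was higher at E18 (adjusted p = 0.0050 by edgeR). The photoreceptor marker Nrl went the other way, at 1.16, 0.598 and 0.508 CPM at E18 and 1.30, 1.21 and 1.92 CPM at P5. Its log2 fold change of -0.97 did not pass the threshold (adjusted p = 0.0557 by edgeR). Rcvrn had few reads and was not tested. Markers of dividing cells set the E18 samples apart from each other. Their summed level was 302, 120 and 72.3 CPM in E18 replicates 1, 3 and 4 and 56.9 to 73.4 CPM at P5, and 5 of the 8 markers were higher at E18. The part of glial, photoreceptor and dividing cells in the values below was not tested, and results without each library are given where they differ. In bulk RNA, fewer cells of a type and less RNA per cell cannot be told apart.

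Of the 42 genes, 41 passed the filter on low counts, and 11 of these were lower at E18, 0 were higher and 30 did not pass the threshold (adjusted p under 0.05 in edgeR's quasi-likelihood test, over all genes tested). The share of lower genes, 26.8%, was close to the 22.5% of all 16449 genes tested that were lower at E18, whereas 20.8% of all genes were higher. With unadjusted p under 0.05, 14 of the 41 were lower and 0 higher. The share of all genes at that level was not counted, so this count and similar ones below have no share to set beside them. DESeq2 also called 11 lower and 0 higher, with 26.2% of these genes lower beside 21.9% of all genes in that fit. The median log2 fold change of E18 over P5 was -0.16 for the 41 genes and 0.0047 for all genes tested. A negative value was found for 34 of the 41 genes and a positive value for 7. The 11 genes that were lower differed by 1.19 to 1.34 fold, with adjusted p between 0.0062 and 0.0465 by edgeR. The number of genes called depended on single libraries, and fell to 2 without E18 replicate 1 or E18 replicate 4, to 3 without E18 replicate 3 and to 4 without P5 replicate 9, and rose to 18 without P5 replicate 8. These counts were 4.88%, 4.88%, 7.32% and 9.76% of the genes, beside 16.4%, 18.5%, 14.5% and 17.4% of all genes tested that were lower in the same fits, and 43.9% beside 27.8% without P5 replicate 8. No gene was called higher in any of these fits.

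In 22 of the 41 genes the highest E18 sample lay under the lowest P5 sample, a share of 53.7%, beside 28.5% of all genes tested. All 11 genes called lower were among these 22. Most of the genes were abundant. In 38 of the 41 genes the mean was at least 10 CPM, with 1115 to 35809 reads in each sample, and their standard errors were 0.0784 to 0.135 on the log2 scale. Over these 38 genes the log2 fold change lay between -0.43 and 0.21. The median standard error was 0.0906 for the 41 genes and 0.151 for all genes tested. Over all genes tested the median absolute log2 fold change was 0.39, and the median log2 fold change of those called lower was -0.83.

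**Figure D1:**
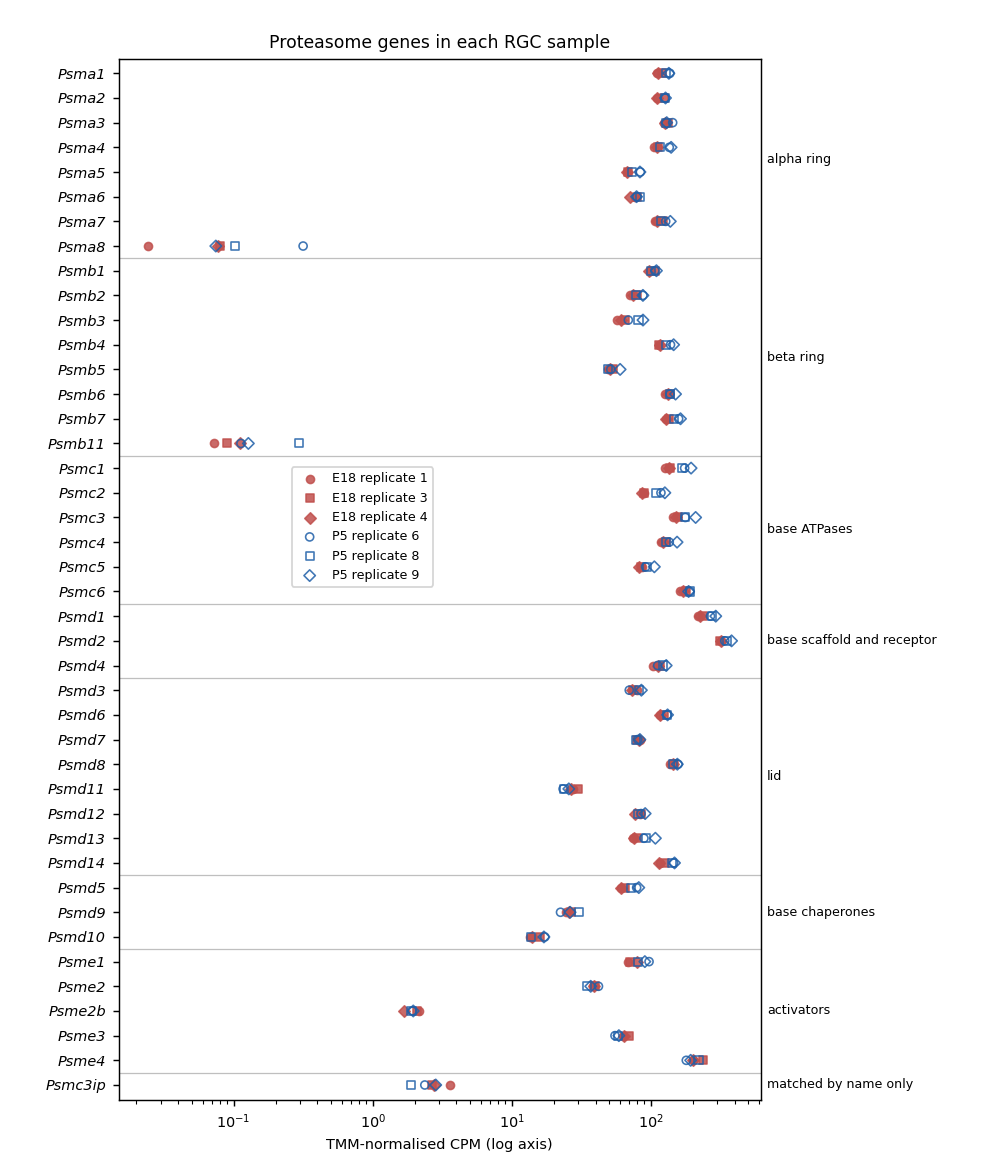
Normalised level of each of the 42 genes (CPM on a log axis) in the 3 E18 samples (filled red) and the 3 P5 samples (open blue), grouped by place in the proteasome. Psmc1, Psmc2 and Psmd13 show E18 samples to the left of all P5 samples, and Psma8 and Psmb11 lie below 1 CPM in every sample.

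The summed level of the 42 genes was 3908, 4172 and 3972 CPM in E18 replicates 1, 3 and 4 and 4472, 4404 and 4757 CPM in P5 replicates 6, 8 and 9. Every E18 sample lay below every P5 sample. The E18 mean was 4017 ± 138 CPM (SD, n = 3) and the P5 mean 4544 ± 187 CPM (SD, n = 3), so that E18 stood at 88.4% of P5. As a share of all counted reads, the genes took 0.386% to 0.408% at E18 and 0.443% to 0.482% at P5. Within an age, the genes also tended to shift together from sample to sample. Among the 40 tested genes other than Psmc3ip, E18 replicate 3 was the highest E18 sample in 32 and E18 replicate 1 the lowest in 27, and P5 replicate 9 was the highest P5 sample in 28.

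The ATPases of the base, the motor that unfolds substrates and opens the core, held the lowest E18 levels relative to P5. All 6 had negative log2 fold changes, with a median of -0.26. In all 6 the ages did not overlap, beside 28.5% of all genes tested that were lower at E18 without overlap. Psmc1, Psmc2 and Psmc3 were lower at E18, and Psmc4, Psmc5 and Psmc6 did not pass the threshold, with log2 fold changes of -0.18, -0.20 and -0.16. The summed level of the 6 ATPases at E18 was 82.3% of that at P5.

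Psmc1 and Psmc2 were the only 2 of the 11 genes that were called lower whichever sample was left out. Psmc1 lies on chromosome 12 (mm10, chr12:100110154-100123405, plus strand) and Psmc2 on chromosome 5 (chr5:21785283-21803787, plus strand). Their start regions are shown because these genes carry the firmest difference. The sequences are RefSeq promoter windows on GRCm38.p6, the mm10 assembly, from 250 bases before to 50 bases after an annotated start, read 5′ to 3′ on the strand of the gene. Capitals mark matches, on either strand, to the antioxidant response element core (TGACNNNGC or TGAGNNNGC), which Nrf1 (Nfe2l1) and Nrf2 (Nfe2l2) recognise, to the CCAAT box, and to the ETS core CGGAAG, which factors of the ETS family such as Elk-1 recognise. The Psmc1 window is chr12:100109952-100110251, and the 2 Psmc2 windows, from different annotated starts, are chr5:21785025-21785324 and chr5:21786497-21786796.
Psmc1: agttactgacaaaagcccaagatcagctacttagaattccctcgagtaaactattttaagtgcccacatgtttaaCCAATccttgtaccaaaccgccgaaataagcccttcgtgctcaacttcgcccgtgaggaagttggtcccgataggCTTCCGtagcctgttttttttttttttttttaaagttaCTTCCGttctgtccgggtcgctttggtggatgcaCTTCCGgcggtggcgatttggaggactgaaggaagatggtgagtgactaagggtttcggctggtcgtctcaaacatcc
Psmc2, first start: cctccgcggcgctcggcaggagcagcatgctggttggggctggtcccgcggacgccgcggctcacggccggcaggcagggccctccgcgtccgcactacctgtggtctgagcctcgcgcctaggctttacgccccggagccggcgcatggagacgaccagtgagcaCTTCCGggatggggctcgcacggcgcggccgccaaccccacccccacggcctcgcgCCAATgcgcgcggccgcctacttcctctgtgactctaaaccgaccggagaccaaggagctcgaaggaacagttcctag
Psmc2, second start: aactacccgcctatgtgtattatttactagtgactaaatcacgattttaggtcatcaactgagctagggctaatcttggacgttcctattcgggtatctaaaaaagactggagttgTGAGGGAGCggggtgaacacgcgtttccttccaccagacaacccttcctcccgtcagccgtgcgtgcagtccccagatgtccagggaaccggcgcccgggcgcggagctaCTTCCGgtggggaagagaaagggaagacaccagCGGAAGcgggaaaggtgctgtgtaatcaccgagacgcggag
The Psmc1 window held 3 ETS matches, 100, 62 and 28 bases before the start, and 1 CCAAT box. The first Psmc2 window held 1 ETS match and 1 CCAAT box. The second held 2 ETS matches and 1 antioxidant response match 134 bases before the start.

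Psmc1 was measured at 127, 138 and 134 CPM in E18 replicates 1, 3 and 4 and at 175, 167 and 195 CPM in P5 replicates 6, 8 and 9. The highest E18 sample was well below the lowest P5 sample. The log2 fold change was -0.43 (SE 0.0907, adjusted p = 0.0063 by edgeR). Psmc2 was measured at 89.6, 89.7 and 86.2 CPM at E18 and at 118, 109 and 126 CPM at P5. Its 3 E18 samples were nearly equal, and all lay below P5. The log2 fold change was -0.41 (SE 0.0878, adjusted p = 0.0062 by edgeR). Psmc3 had a log2 fold change of -0.32 (adjusted p = 0.0285 by edgeR) and was no longer called without any 1 of the 3 E18 samples or without P5 replicate 9.

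**Figure D2:**
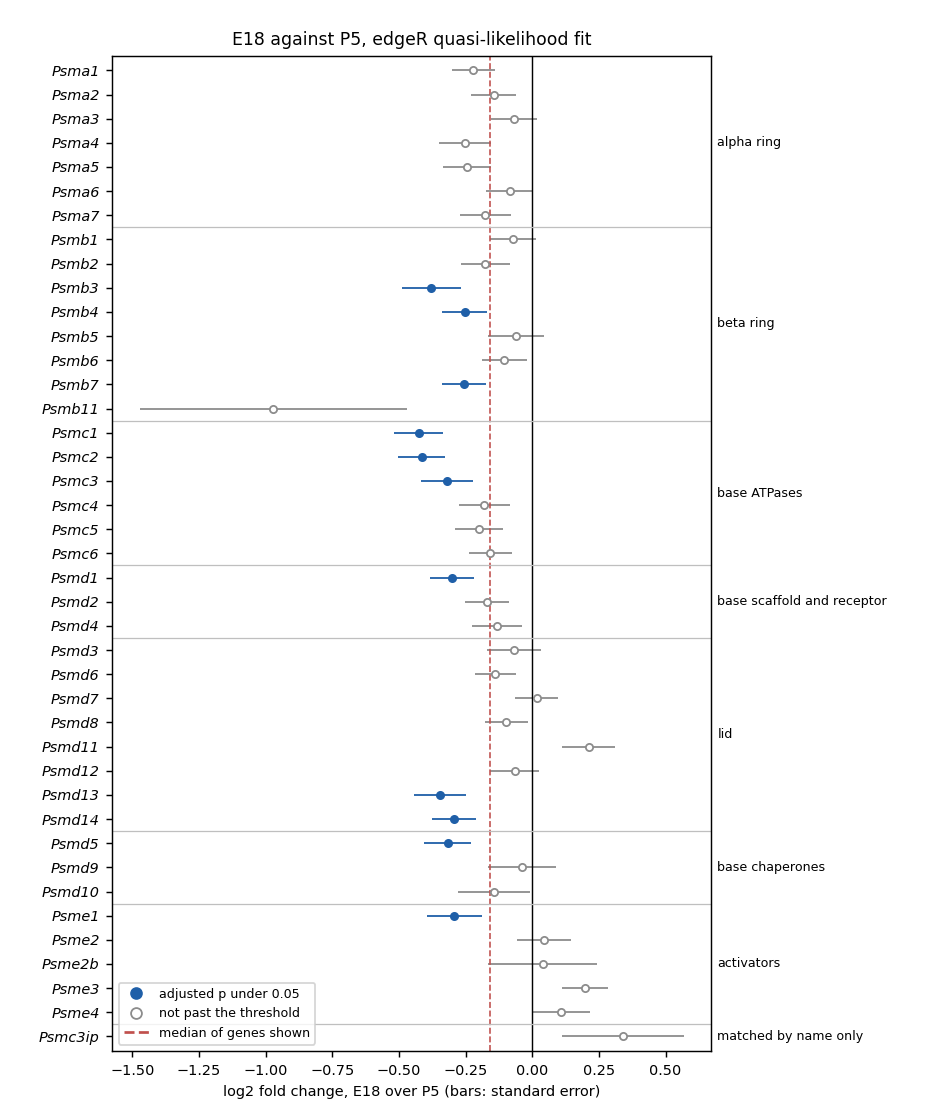
Log2 fold change of E18 over P5 with its standard error for the 41 genes tested, grouped by place in the proteasome, with filled blue points for adjusted p under 0.05 in edgeR's quasi-likelihood test. The dashed line marks the median of -0.16, and the 11 filled points all lie to the left of 0.

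The base also holds the large scaffold subunits Psmd1 and Psmd2 and the ubiquitin receptor Psmd4. Psmd1 was lower at E18 with a log2 fold change of -0.30 (adjusted p = 0.0182 by edgeR), and lost its call without any 1 of the 3 E18 samples. Psmd2 and Psmd4 did not pass the threshold, with log2 fold changes of -0.17 and -0.13. Psmd2 had the highest level of all 42 genes in CPM, at 316 to 319 CPM at E18 and 340 to 381 CPM at P5.

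The lid was mixed. Of its 8 genes 2 were lower at E18 (25.0%, close to the 22.5% of all genes tested) and 6 did not pass the threshold. The median log2 fold change was -0.08. Psmd14, the deubiquitinase that removes ubiquitin chains from substrates, had a log2 fold change of -0.29 (adjusted p = 0.0205 by edgeR), and was not called without E18 replicate 1 or E18 replicate 4. Its catalytically inactive partner Psmd7 had a log2 fold change of 0.02 (adjusted p = 0.886 by edgeR), whose sign changed with the scaling of the libraries. The difference between these partners was not tested. Psmd3, Psmd6, Psmd8 and Psmd12, structural subunits of the lid, had log2 fold changes between -0.14 and -0.07.

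Psmd13, a structural lid subunit on chromosome 7 (chr7:140881968-140898643, plus strand), was measured at 73.8, 79.0 and 75.2 CPM in E18 replicates 1, 3 and 4 and at 89.2, 92.7 and 107.8 CPM in P5 replicates 6, 8 and 9. The ages did not overlap, and P5 replicate 9 stood above the other two. The log2 fold change was -0.35 (SE 0.0983, adjusted p = 0.0215 by edgeR). Without P5 replicate 9 the adjusted p was 0.0554, and without 1 E18 sample it was 0.0600 to 0.0854.

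Psmd11, the lid subunit that contacts the base and helps join the regulatory particle to the core, went the other way and was chosen for full description after its values were seen. It was measured at 27.8, 29.8 and 26.5 CPM at E18 and at 23.4, 23.6 and 25.7 CPM at P5. Every E18 sample was above every P5 sample. The log2 fold change of 0.21 did not pass the threshold (SE 0.101, adjusted p = 0.121 by edgeR), and stayed between 0.17 and 0.25 as each sample was left out.

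In the core particle, 3 of 15 tested genes were lower at E18, a smaller share than the 22.5% of all genes tested. In this particle 0 genes were higher, and all 15 had negative log2 fold changes. The 3 lower genes, Psmb3, Psmb4 and Psmb7, belong to the beta ring. The 7 tested alpha subunits, which form the gated outer rings, did not pass the threshold (3 at an unadjusted p under 0.05, and 0 by DESeq2), with log2 fold changes from -0.25 (Psma4) to -0.07 (Psma3). The alpha subunits Psma1, Psma4 and Psma5 were close to it, with adjusted p of 0.0541, 0.0612 and 0.0555 by edgeR, and were called lower when library size alone was used for scaling and when P5 replicate 8 was left out. Psma2, Psma6 and Psma7 had log2 fold changes of -0.15, -0.08 and -0.18.

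The beta ring holds the peptidase sites in 3 subunits, and these differed in their calls. Psmb7, the trypsin-like subunit, was measured at 128, 134 and 129 CPM in E18 replicates 1, 3 and 4 and at 159, 146 and 163 CPM in P5 replicates 6, 8 and 9. The ages did not overlap, and the log2 fold change was -0.26 (SE 0.0832, adjusted p = 0.0351 by edgeR). The call held in only 1 of the 6 fits that left out a sample, and was lost with all genes that had a count (adjusted p = 0.0608 by edgeR). Psmb6, the caspase-like subunit, was measured at 127, 137 and 132 CPM at E18 and at 137.3, 138 and 151 CPM at P5. The E18 samples lay just below the P5 samples, and the log2 fold change of -0.10 did not pass the threshold (SE 0.0840, adjusted p = 0.342 by edgeR). Psmb5, the chymotrypsin-like subunit, was measured at 49.3, 53.7 and 51.0 CPM at E18 and at 51.5, 49.1 and 60.1 CPM at P5. These values overlapped, and the log2 fold change was -0.06 (SE 0.103, adjusted p = 0.660 by edgeR). Whether the 3 subunits differed from each other was not tested.

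The non-catalytic beta subunit Psmb3 (chr11:97703399-97713500, plus strand) showed the largest difference in the core among abundant genes. It was measured at 57.1, 64.8 and 61.5 CPM in E18 replicates 1, 3 and 4 and at 68.9, 81.6 and 87.8 CPM in P5 replicates 6, 8 and 9. The ages did not overlap, but P5 replicate 6 was close to the E18 samples. The log2 fold change was -0.38 (SE 0.111, adjusted p = 0.0241 by edgeR), and the call was lost without any 1 of the E18 samples or without P5 replicate 9. Psmb4, which completes the beta ring, had a log2 fold change of -0.25 (adjusted p = 0.0397 by edgeR, and 0.0661 with all genes that had a count). It was called in only 1 of the 6 fits that left out a sample. Psmb1 and Psmb2 had log2 fold changes of -0.07 and -0.18 and did not pass the threshold.

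Promoter windows of Psmb3, Psmd13 and Psmb6 are shown to set the other genes described in full for the size of their difference beside a catalytic subunit that did not pass the threshold. They are chr11:97703184-97703483, chr7:140882144-140882443 and chr11:70525107-70525406, all on the plus strand of GRCm38.p6, with capitals as for Psmc1.
Psmb3: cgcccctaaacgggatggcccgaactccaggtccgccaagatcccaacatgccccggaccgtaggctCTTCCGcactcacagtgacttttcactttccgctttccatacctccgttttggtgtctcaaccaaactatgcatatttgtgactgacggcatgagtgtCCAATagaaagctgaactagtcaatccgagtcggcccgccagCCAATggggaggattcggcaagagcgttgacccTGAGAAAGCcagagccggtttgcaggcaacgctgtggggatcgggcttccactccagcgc
Psmd13: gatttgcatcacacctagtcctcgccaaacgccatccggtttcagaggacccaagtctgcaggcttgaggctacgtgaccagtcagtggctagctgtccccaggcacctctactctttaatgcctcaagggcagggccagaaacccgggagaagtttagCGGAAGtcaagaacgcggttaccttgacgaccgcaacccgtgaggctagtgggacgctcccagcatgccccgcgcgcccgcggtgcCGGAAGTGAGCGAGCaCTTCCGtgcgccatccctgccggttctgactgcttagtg
Psmb6: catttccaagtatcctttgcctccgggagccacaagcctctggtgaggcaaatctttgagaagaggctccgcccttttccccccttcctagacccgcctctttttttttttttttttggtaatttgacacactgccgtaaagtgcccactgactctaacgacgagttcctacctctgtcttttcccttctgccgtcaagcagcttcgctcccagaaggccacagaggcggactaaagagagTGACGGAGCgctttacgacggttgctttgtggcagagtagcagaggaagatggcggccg
Psmb3 and Psmb6 each held an antioxidant response match at the start, 10 and 9 bases before it. Psmd13 held 3 ETS matches, the last of which flank its 1 antioxidant response match at the start of this window's transcript. The whole Psmd13 window lies inside the gene coordinates given above, which begin at chr7:140881968, so this RefSeq start is an inner one. The Psmb6 window held no ETS match, whereas 14 of the 26 genes not called that had a window held one.

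Promoter windows were found for 35 of the 42 genes, including 9 of the 11 lower ones. The ETS core was present in 21 of these 35 genes (60.0%), beside 30.7% of the tested genes that had a window and 18.8% of all genes with one. The antioxidant response core was present in 16 (45.7%), beside 35.2% of tested genes, and the CCAAT box in 14 (40.0%), beside 42.4%. Of the 9 lower genes, 7 held an ETS core, 5 an antioxidant response core and 4 a CCAAT box. Of the 26 genes not called, the counts were 14, 11 and 10. A match to letters does not show that a factor binds there, and all shares are descriptions.

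**Figure D3:**
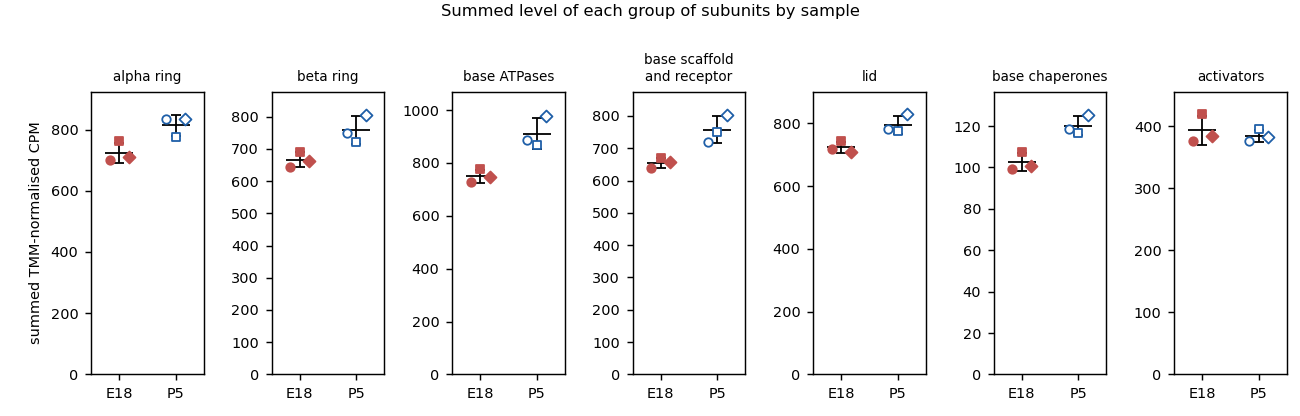
Summed level (CPM, axes from 0) of the genes of each group in every sample, with E18 in red, P5 in blue, the horizontal line for the mean and the bar for the SD (n = 3). The 3 E18 samples lie below the 3 P5 samples in every group but the activators.

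Activators cap the core in place of the regulatory particle. Their summed level was 375, 419 and 384 CPM in E18 replicates 1, 3 and 4 and 376, 395 and 382 CPM in P5 replicates 6, 8 and 9, and the samples of the ages were interleaved. Psme4 alone made up 201 to 236 CPM of this sum at E18 and 180 to 220 CPM at P5. Of the 5 genes, 1 was lower, beside 22.5% of all genes tested, and 4 did not pass the threshold, and the median log2 fold change was 0.04. Psme1 and Psme2 encode the partner subunits of one activator ring. Psme1 was lower at E18 (log2 fold change -0.29, adjusted p = 0.0465 by edgeR), a call that was lost in 5 of the 6 fits without 1 sample, under upper-quartile scaling (adjusted p = 0.0508 by edgeR) and with all genes that had a count (0.0589). Psme2 had a log2 fold change of 0.04 (adjusted p = 0.756 by edgeR). Whether activators differed from the other groups was not tested. Psme2b, whose name marks it as a copy of Psme2, stayed between 1.68 and 2.16 CPM, and how reads shared by such copies were counted is not stated.

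Psme3, a nuclear activator, was chosen for full description after its values were seen. It was measured at 63.3, 70.1 and 64.1 CPM at E18 and at 55.2, 58.1 and 58.9 CPM at P5, with every E18 sample above every P5 sample. The log2 fold change of 0.20 did not pass the threshold (SE 0.0876, adjusted p = 0.0975 by edgeR). Psme4, the large activator linked to histone degradation, had a log2 fold change of 0.11 (adjusted p = 0.446 by edgeR).

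The assembly chaperones of the base act on the ATPases before these join the particle. Psmd5 was lower at E18 with a log2 fold change of -0.32 (adjusted p = 0.0196 by edgeR), and was not called without any 1 of the E18 samples or without P5 replicate 9. Psmd9 and Psmd10 did not pass the threshold, with log2 fold changes of -0.04 and -0.14.

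Tissue-restricted subunits were near absent. Psma8, the testis alpha subunit, had 2, 9 and 7 reads in E18 replicates 1, 3 and 4 and 28, 10 and 7 in P5 replicates 6, 8 and 9, and was not tested. Only P5 replicate 6 stood out. Psmb11, the thymus beta subunit, had 6 to 10 reads at E18 and 10 to 29 at P5, with a log2 fold change of -0.97 that did not pass the threshold (SE 0.502, adjusted p = 0.147 by edgeR). Psmc3ip, the gene matched by name only, lay between 1.89 and 3.59 CPM, with a log2 fold change of 0.34 (adjusted p = 0.257 by edgeR).

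Levels of different genes were compared as CPM per kilobase of the transcript linked to the RefSeq accession of each gene, the longest where several were linked, which was available for 41 of the 42 genes. In P5 RGCs, the median was 101.02 CPM per kilobase in the beta ring, 71.1 in the alpha ring, 90.8 among the ATPases, 91.1 among scaffold and receptor subunits, 49.8 in the lid, 34.9 among activators and 11.2 among base chaperones. The ring medians include the near-absent Psmb11 and Psma8, at 0.0420 and 0.0969 CPM per kilobase. All these medians were taken on this length only, and the order of the groups was not compared on another. On this length, Psmb6 was at 178, Psmb7 at 135 and Psmb5 at 59.6 CPM per kilobase. In the lid, Psmd11 was lowest at 8.51 CPM per kilobase, and Psmd8 was at 100.9 and Psmd14 at 94.4. The order of the genes was nearly the same at both ages, but it depended on the length used. With the union of all annotated exons as the length, Psmc1 stood highest at 92.5 CPM per kilobase, ahead of Psmd2 at 88.5 and Psmb6 at 75.9. On that length Psmb5 lay above Psmb7, at 59.6 against 45.6 CPM per kilobase, and Psmd14 above Psmd8, at 51.6 against 49.9. Psmd11 was the lowest lid gene on both lengths.

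**Figure D4:**
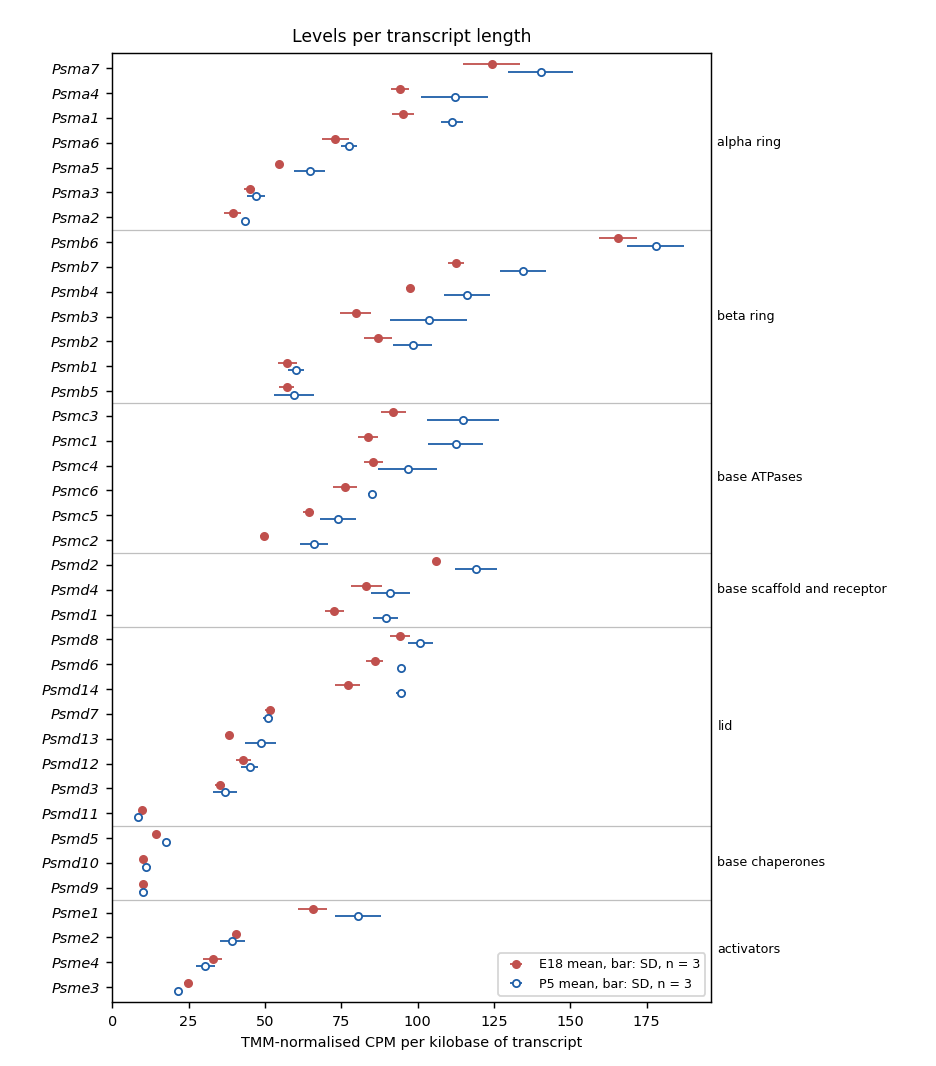
Mean level per transcript length (CPM per kilobase) with SD (n = 3) at E18 (filled red) and P5 (open blue) for the more abundant genes of each group, sorted by the P5 level. On this length Psmb6 is highest at 178 CPM per kilobase at P5, which did not hold with the union of exons as the length, and Psmd11 and the base chaperones lie at the low end.

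The immunoproteasome genes encode catalytic beta subunits that replace the standard ones, mainly in immune cells. Psmb10 was measured at 8.52, 9.14 and 9.95 CPM in E18 replicates 1, 3 and 4 and at 14.4, 12.8 and 17.6 CPM in P5 replicates 6, 8 and 9. The ages did not overlap, and Psmb10 was lower at E18 (log2 fold change -0.70, SE 0.149, adjusted p = 0.0063 by edgeR). Psmb8 was below 0.1 CPM in every E18 sample and between 0.293 and 0.366 CPM at P5 (log2 fold change -2.26, SE 0.397, adjusted p = 0.0027 by edgeR). These values rest on few reads, 4, 10 and 5 in E18 replicates 1, 3 and 4 and 26, 36 and 28 in P5 replicates 6, 8 and 9. Psmb9 was not tested, at 0.011 to 0.0723 CPM at E18 and 0.102 to 0.237 CPM at P5. Summed microglial markers were at 3.80 to 4.33 CPM at E18 and at 2.61 to 3.12 CPM at P5, and 0 of the 6 that were tested passed the threshold in edgeR, with 1 at an unadjusted p under 0.05 and 1 by DESeq2. Their part in the values of Psmb8, Psmb9 and Psmb10 was not tested.

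Of 15 assembly and associated factors found in the table, 4 were lower at E18, 1 was higher and 10 did not pass the threshold. The shares were 26.7% lower and 6.67% higher, beside 22.5% and 20.8% of all genes tested. The median log2 fold change was -0.07. AI314180, the mouse gene for the adaptor Ecm29 that holds core and regulatory particle together, showed the largest difference in this list. It was measured at 199, 213 and 197 CPM in E18 replicates 1, 3 and 4 and at 296, 317 and 329 CPM in P5 replicates 6, 8 and 9. The ages were far apart, and the log2 fold change was -0.63 (SE 0.0845, adjusted p = 9.0e-04 by edgeR). The other lower genes, named after their values were seen, encode enzymes that act on ubiquitin at the proteasome, Usp14 (log2 fold change -0.41), Uchl5 (-0.42) and Ube3c (-0.42), of which Uchl5 lost its call in 5 of the 6 fits without 1 sample. The higher gene, also named after its value was seen, was Akirin2 (0.43), a nuclear protein that helps import proteasomes into the nucleus, and it lost its call without E18 replicate 3.

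Of 4 genes described here that supply or activate ubiquitin, 2 were higher at E18, beside 20.8% of all genes tested, 2 did not pass the threshold, and all 4 had positive log2 fold changes with a median of 0.23. Rps27a, which encodes ubiquitin fused to a ribosomal protein, was measured at 204, 212 and 196 CPM in E18 replicates 1, 3 and 4 and at 167, 157 and 133 CPM in P5 replicates 6, 8 and 9. The ages did not overlap, and Rps27a was higher at E18 (log2 fold change 0.42, SE 0.103, adjusted p = 0.0116 by edgeR). Uba1, the main ubiquitin-activating enzyme, was measured at 716, 766 and 787 CPM at E18 and at 609, 606 and 645 CPM at P5, without overlap, and was higher at E18 (log2 fold change 0.29, SE 0.0803, adjusted p = 0.0200 by edgeR). Neither was called without E18 replicate 3, and Uba1 was also not called without E18 replicate 4 or P5 replicate 6. Ubb, a polyubiquitin gene, was measured at 396, 382 and 378 CPM at E18 and at 337, 323 and 362 CPM at P5. Its ages did not overlap, but it did not pass the threshold (log2 fold change 0.18, SE 0.0822, adjusted p = 0.112 by edgeR). Uba6, the other ubiquitin-activating enzyme, was measured at 66.8, 77.8 and 64.1 CPM at E18 and at 68.9, 67.1 and 54.8 CPM at P5. These values overlapped (log2 fold change 0.13, SE 0.120, adjusted p = 0.408 by edgeR).

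Of 10 genes for ubiquitin shuttles and for the p97 unfoldase with its cofactors, 0 were called by edgeR or DESeq2. In edgeR, 22.5% of all genes tested were lower and 20.8% higher. At an unadjusted p under 0.05, 3 of the 10 were lower and 1 was higher, and the median log2 fold change was 0.00082. When library size alone was used for scaling, or a mean of at least 1 CPM as the filter, 3 of them were called lower.

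Of the 4 genes in the pathway known to raise proteasome gene transcription, Nfe2l1, the transcription factor Nrf1, was measured at 153, 157 and 178 CPM at E18 and at 157, 153 and 178 CPM at P5. These values overlapped, with a log2 fold change of -0.0015 (SE 0.0990, adjusted p = 0.993 by edgeR) whose sign changed with the scaling. Ngly1, the enzyme that removes sugars from Nrf1, was measured at 23.7, 24.8 and 24.2 CPM at E18 and at 35.1, 33.1 and 38.2 CPM at P5. It was lower at E18 without overlap (log2 fold change -0.55, SE 0.0984, adjusted p = 0.0030 by edgeR). Nfe2l2, the stress factor Nrf2, was measured at 21.9, 23.9 and 28.6 CPM at E18 and at 31.6, 30.7 and 33.9 CPM at P5, and was lower at E18 (log2 fold change -0.37, SE 0.121, adjusted p = 0.0360 by edgeR), a call that was lost without E18 replicate 1 or 3 and without P5 replicate 6 or 9. Ddi2, the protease that cleaves Nrf1, did not pass the threshold (log2 fold change 0.25, SE 0.132, adjusted p = 0.149 by edgeR) but was called higher without P5 replicate 8, and its values of 18.7, 20.4 and 19.02 CPM at E18 and 14.8, 19.2 and 14.7 CPM at P5 overlapped.

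**Figure D5:**
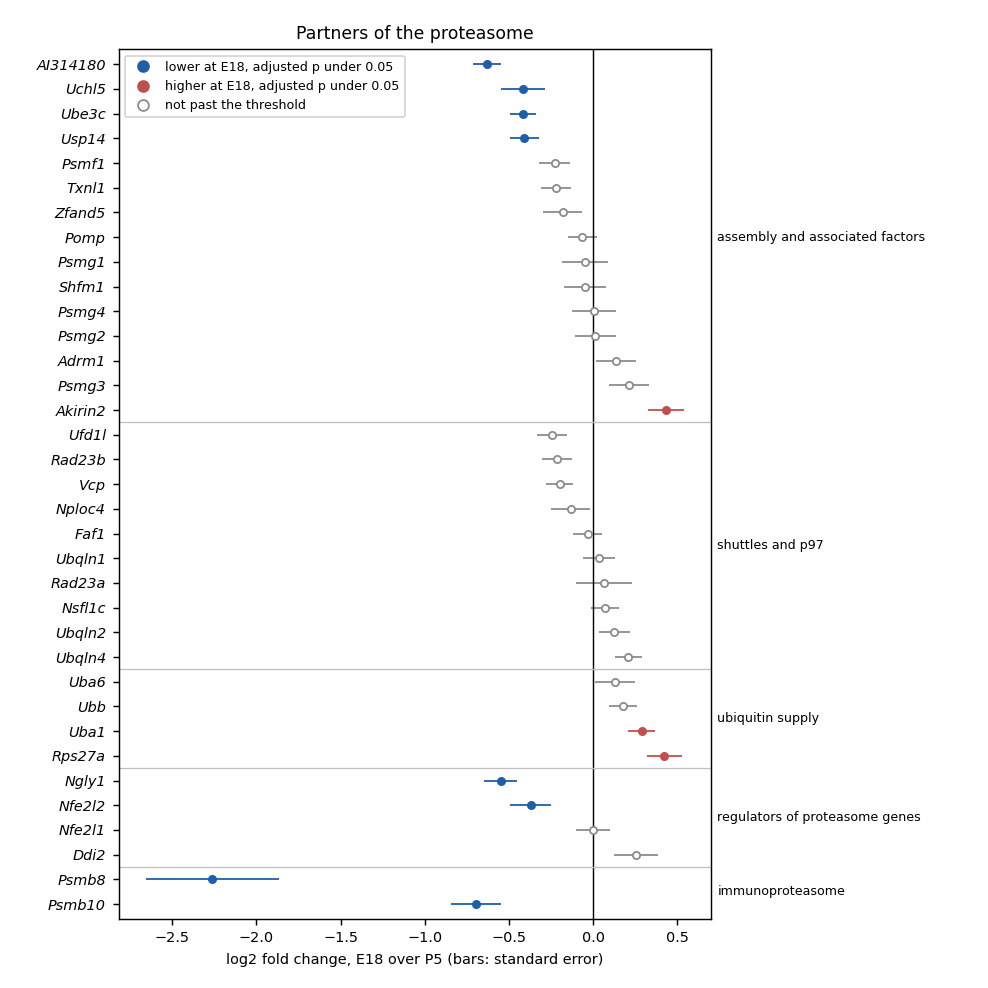
Log2 fold change of E18 over P5 with its standard error for tested genes of the lists around the proteasome, blue where lower and red where higher at E18 with adjusted p under 0.05 in edgeR's quasi-likelihood test. AI314180 lies at -0.63, Psmb8, which had few reads, at -2.26, and the 4 ubiquitin supply genes all lie to the right of 0.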

How the data were processed

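RNA-seq of immunopanned RGCs was analysed in 6 samples, 3 at E18 and 3 at P5, grouped by their labels. The name of 1 E18 column lists the numbers 1, 2 and 5; it was read as replicate 1, and a pool of preparations is possible. Paired-end reads were aligned by the authors with STAR (mm10 genome), HT-seq gave the number of reads on each RefSeq gene, and these raw counts were deposited. Libraries followed ribosomal RNA depletion per the protocol, although polyA RNA is given as the molecule. Strand setting and multi-mapped reads are not stated, so copies and overlapping genes are uncertain. The 9 columns of normalised counts and ratios, and the 4 columns of the authors' own comparison (rank, fold change, p-value and false discovery rate), were not used.

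Counts were normalised by TMM, filtered with filterByExpr (minimum count 10) and tested with glmQLFTest in edgeR 4.0.16 (R 4.3.3) on all 16449 genes that passed, with Benjamini-Hochberg adjustment at 0.05. CPM use TMM-scaled library sizes. The script was tested on simulated data. Pooled over genes, replicates differed by more than sampling noise (chi-square of 30.5 to 141 per degree of freedom) at a depth of 81213639 to 114512853 reads. Their spread therefore bears on the precision of genes with many reads, and depth also limits genes with few reads. Alternatives were DESeq2 1.42.0, edgeR's exact test, other scalings and filters, and leaving out each sample. Gene coordinates, matched by symbol, and transcript lengths, matched by RefSeq accession, are from GENCODE M21, and promoters from RefSeq.

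Full values are given for genes past the threshold with at least a 1.25-fold change, the 3 catalytic subunits and the untested gene, and in the lists around the proteasome for genes past it with at least 1.5 fold, at most 4 a list, and lists of up to 4 genes. The members and lists were chosen with earlier results of these data known. Values of some single genes in the lists are not reported here, and their counts leave them out.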

Additional observations from a re-analysis of the deposited data

How the results depend on the processing

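The number of proteasome genes called, all lower at E18, ranged from 2 to 18 as each sample was left out, against 11 with all samples, and the number called over all genes tested from 4575 to 8796, against 7135. The median log2 fold change of the proteasome genes stayed between -0.20 and -0.12 in these fits. Under DESeq2, the exact test, other scalings and other filters, 8 to 14 were called and 0 were higher. With all genes that had a count, 19.05% of the proteasome genes were lower, beside 17.04% of all genes in that fit. With a mean of at least 1 CPM these shares were 35% and 24.9%. In the other settings both shares lay between these values. Of the 11 genes, 8 were called in all of these settings, and Psmb4, Psmb7 and Psme1 were lost in at least 1. Without Psmc3ip, left out after the data were seen, the count was again 11. Of 491 single-gene values under alternatives, 429 kept direction and side of the threshold, 40 lost their call, 13 gained one and 9 changed sign. The sign changes were in genes with small differences. Psmd7 was at -0.0092 under library size alone and at -0.0053 with a mean of at least 1 CPM. As samples were left out, Psmb5 ranged from -0.14 to 0.028, Psmd7 from -0.025 to 0.045, Psmd9 from -0.16 to 0.059, Psme2 from -0.037 to 0.11, Psme2b from -0.022 to 0.15 and Nfe2l1 from -0.070 to 0.065. Nfe2l1 was at 0.0058 under DESeq2, 0.0048 under upper-quartile scaling and 0.0056 with all genes that had a count. Around the proteasome, counts without 1 sample were 0 to 2 higher assembly factors, 0 to 2 higher ubiquitin supply genes, 0 to 3 lower shuttles, 1 to 2 lower and 0 to 1 higher regulators, and 2 to 4 lower and 0 to 1 higher COP9 genes. Scaling by library size alone gave 3 lower shuttles, as did the filter on mean CPM, and this filter left 1 lower immunoproteasome gene because fewer genes were tested. For the 18 genes named around the proteasome, alternatives for which were added after the data were seen, 189 of 215 values kept direction and side. The cause of other changes was not tested. No paired analysis was possible because no replicate number is shared between the ages. Depth limited Psma8, Psmb11, Psmb8 and Psmb9, which had few reads.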

Other observations

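The COP9 signalosome is a complex built like the lid of the proteasome that removes the ubiquitin-like protein Nedd8 from ubiquitin ligases. Of its 9 genes tested, 2 were lower at E18 (22.2%, beside 22.5% of all genes tested) and 1 was higher (11.1%, beside 20.8%). The other 6 did not pass the threshold, and the median log2 fold change was -0.02. Cops7a was measured at 23.6, 22.4 and 23.9 CPM in E18 replicates 1, 3 and 4 and at 38.5, 30.1 and 48.4 CPM in P5 replicates 6, 8 and 9. The ages did not overlap, and Cops7a was lower at E18 (log2 fold change -0.74, SE 0.161, adjusted p = 0.0069 by edgeR). Its paralog Cops7b, named after its values were seen, was measured at 36.4, 38.03 and 37.7 CPM at E18 and at 28.4, 33.2 and 25.1 CPM at P5, and was higher at E18 (log2 fold change 0.37, SE 0.118, adjusted p = 0.0328 by edgeR). Cops7b was no longer called in 5 of the 6 fits without 1 sample. Cops5, the catalytic subunit and a relative of Psmd14, was also named after its value was seen and had a log2 fold change of -0.43 (adjusted p = 0.0095 by edgeR), beside -0.29 for Psmd14.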
